A study of Sus scrofa with 24 samples.

Results

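Subcutaneous adipocytes (BF) were compared between day 0 and day 2. On day 0 the cells were nearly confluent preadipocytes that had not yet received adipogenic medium, and day 2 was the end of the induction step. The cells came from the back subcutaneous fat of 6-day-old Yorkshire piglets, and each day is represented by 3 miRNA-seq libraries, 6 of the 24 in the series. The other libraries are BF on days 4 and 8 and adipocytes of the longissimus dorsi muscle (IMF) on the same 4 days, again with 3 libraries per group. All groups share the same culture protocol, and what separates BF-2d from BF-0d is time together with a medium holding 3-isobutyl-1-methylxanthine (a phosphodiesterase inhibitor, which raises cyclic AMP), dexamethasone (a glucocorticoid) and insulin. No library from cells held without these agents for 2 days was analysed here, so agents and time cannot be told apart. The cells were taken by collagenase digestion and sieving, with no sorting step, and the labels do not tie single libraries to single piglets. The p-values below therefore measure the spread between libraries, which may be technical. The miRNAs considered were the known (ssc-) and newly predicted (novel_) entries whose TPM (reads scaled to one fixed total of reads on miRNAs per library) averaged 1 or more across all 24 libraries. These were 430 entries, 270 known and 160 new, and the other 1157 entries of the table were not tested.

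miRNAs are short RNAs cut from hairpin precursors and loaded into Argonaute proteins, where the bases near their 5′ end, the seed, select the mRNAs to be repressed. miRNAs with one seed share many targets, and miRNAs cut from one transcript tend to be made together. In cultured preadipocytes the hormonal induction step brings a short round of cell division and the start of the transcription factor cascade around C/EBP and PPARγ, and several miRNAs are known to restrain or favour it. miR-27 restrains PPARγ, whereas miR-143, miR-148a and miR-210 have been described as favouring fat cell formation.

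The entries that passed the test between day 0 and day 2 (DE-miRNAs, below) carry the following mature sequences. They are written 5′ to 3′, with the seed (bases 2 to 8) in capitals. The first set holds the sequences that fell.
ssc-miR-185: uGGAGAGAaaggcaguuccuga
ssc-miR-874: cUGCCCUGgcccgagggaccgac
ssc-miR-27b-5p: aGAGCUUAgcugauuggugaaca
novel_miR_542: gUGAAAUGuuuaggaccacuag
ssc-miR-1: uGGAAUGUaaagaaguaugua
ssc-let-7f-5p: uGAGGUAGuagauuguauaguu
The second set holds the sequences that rose.
ssc-miR-210: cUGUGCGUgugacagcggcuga
ssc-miR-758: uUUGUGACcugguccacuaac
ssc-miR-381-3p: uAUACAAGgacaagcucucugu
novel_miR_461: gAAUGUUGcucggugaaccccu
novel_miR_716: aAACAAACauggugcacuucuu
ssc-miR-30c-3p: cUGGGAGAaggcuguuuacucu
novel_miR_1018: cAGCAAUGauggaucugagc
novel_miR_11: uAAGGAUCuggcauugcuguga
No 2 lines share a seed. novel_miR_326, novel_miR_433 and novel_miR_930, which also rose, have the same 20 bases as novel_miR_1018, and no sequence is given here for novel_miR_650. From general knowledge, novel_miR_461 and novel_miR_716 carry the sequences that human and mouse name miR-409-3p and miR-495-3p, and novel_miR_542 that of miR-203.

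The 6 libraries held from 8078414 to 16863560 reads on miRNAs, so that 1 read is worth between 0.0593 and 0.124 TPM, and the day 0 libraries held more reads than 2 of the 3 day 2 libraries. ssc-miR-21-5p alone took between 54.2% and 59.1% of each library, and the top 10 entries together between 89.2% and 91.2%. Day 0 and day 2 averaged 57.2% ± 2.66 and 55.8% ± 1.19 for the first share and 89.7% ± 0.439 and 90.4% ± 0.828 for the second (SD, n = 3). With 3 against 3 libraries an exact permutation test cannot go below p = 0.1, so no p is given for these shares. TPM values are shares of one total, and the median log2 fold change was 0.01 over all tested entries, -0.07 over the known and 0.15 over the new ones. All pairs of libraries within a day differed far beyond counting error (chi-square divided by its degrees of freedom from 51.3 to 702), so none was counted as a repeat. No miRNA marks a preadipocyte by itself, so the label was checked against miRNAs of other cells. The 9 listed miRNAs of blood, immune and endothelial cells together held 28.4 to 73.1 TPM per library, mostly ssc-miR-126-3p of endothelium. ssc-miR-451, ssc-miR-142-3p and ssc-miR-486 of blood cells had reads in all 6 libraries, with means under 1 TPM on both days, ssc-miR-150 had no read, and ssc-miR-144 and ssc-miR-223 had none in 5 of 6 libraries. The 9 of epithelium and liver held 14.8 to 26.8 TPM, mostly ssc-miR-122-5p of liver (means of 9.56 and 6.51 TPM on days 0 and 2) and ssc-miR-192 (9.34 and 8.27 TPM), with ssc-miR-215 and ssc-miR-194a-5p also read in all 6 libraries. ssc-miR-375, ssc-miR-200b and ssc-miR-205 had means under 1 TPM on both days and were at 0 in 2 libraries each, and ssc-miR-141 and ssc-miR-429 were at 0 in 4 and 5. novel_miR_542, with the sequence of miR-203 of the epidermis, is not in this list. It had means of 480 and 248 TPM on days 0 and 2. The 5 listed miRNAs of skeletal muscle held 818 to 1012 TPM on day 0 and 475 to 544 TPM on day 2, almost all of it ssc-miR-1, which is described below.

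Between day 0 and day 2, 18 of the 430 entries passed the test (4.19%), 12 of them higher (2.79%) and 6 lower (1.40%) on day 2. A DE-miRNA is an entry with a Benjamini-Hochberg FDR under 0.05 by limma on log2(TPM + 1) and a fold change above 1.5. Fold changes are on that scale, day 2 minus day 0, so they understate the change of entries near 1 TPM. An unadjusted p under 0.05 was found for 104 entries (24.2%), 52 in each direction. In 128 entries (29.8%) the 3 libraries of one day lay apart from those of the other, and this held for all 18 DE-miRNAs. The count depends on 3 entries of the 430 that have no read in any of the 6 libraries and so no spread at all. With them left out, as an alternative chosen after seeing the data, the same test called 35 of 427 entries (8.20%), 26 higher (6.09%) and 9 lower (2.11%), including all 18. edgeR and DESeq2 on whole reads each called 56, and both included all 35. Some other settings ended most calls. With no filter on low values 5 entries were called, and 0 to 4 when any library other than BF-2d replicate 3 was left out. TMM scaling and one fit of all 24 libraries kept all 18 calls, and median-of-ratios scaling kept 17. Each of the 18 lost its call under 5 to 9 of the 16 to 19 alternatives that tested it.

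**Figure D1:**
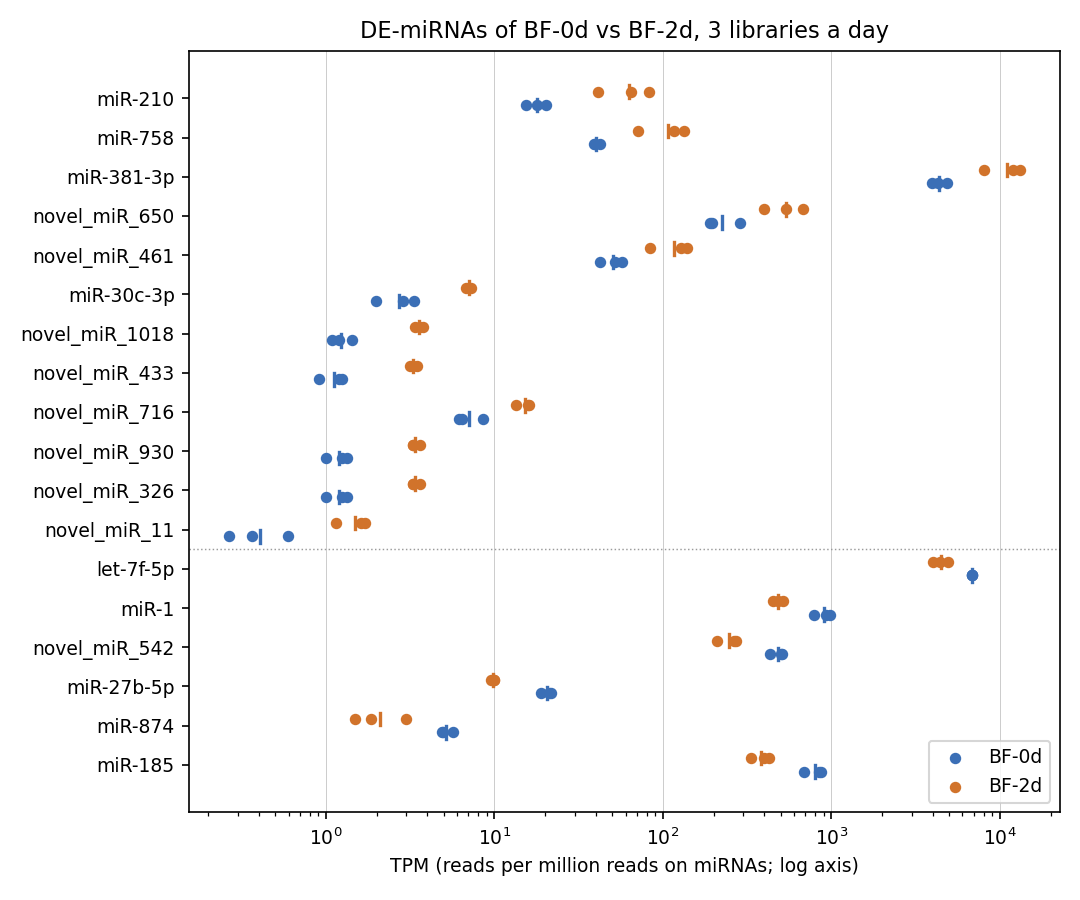
TPM (log axis) of the 18 DE-miRNAs in the 3 libraries of BF-0d (blue) and the 3 of BF-2d (orange), with the mean of each day as a short line. The 12 entries above the dotted line rose and the 6 below it fell, and in no entry do the libraries of the days overlap.

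The miRNAs that fell were ssc-miR-185, ssc-miR-874, ssc-miR-27b-5p, novel_miR_542, ssc-miR-1 and ssc-let-7f-5p, by 1.54 to 2.46 times in mean TPM. ssc-miR-185 comes from an intron of TANGO2 (Sscrofa11.1, chromosome 14, 51449913 to 51449934, plus strand) and is known for targeting sterol synthesis genes. It measured 689, 868 and 845 TPM in the BF-0d libraries and 425, 396 and 332 TPM in the BF-2d libraries. Its log2 fold change was -1.06 (SE 0.16, FDR = 0.0217), and the highest day 2 value stayed below the lowest of day 0 by more than either day's spread (SD 97.3 and 47.9, n = 3).

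ssc-miR-27b-5p is the minor arm of the miR-27b hairpin, which lies in an intron of C10H9orf3 on chromosome 10 (27080011 to 27080033, minus strand) beside miR-23b and miR-24. It measured 21.5, 20.9 and 18.9 TPM on day 0 and 9.53, 9.93 and 9.997 TPM on day 2, a log2 fold change of -0.98 (SE 0.14, FDR = 0.0217). The day 2 libraries were nearly equal and lay far below those of day 0. The major arm, ssc-miR-27b-3p, a repressor of PPARγ, is among the 10 most abundant miRNAs. It had 15552, 14497 and 15651 TPM on day 0 and 9721, 10905 and 10765 TPM on day 2. Its log2 fold change of -0.54 (SE 0.09) passed the FDR (0.0281) and missed the fold criterion, and it is the only entry in that position.

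ssc-let-7f-5p, of the let-7 family that restrains growth, is encoded on chromosome 3 (43466044 to 43466065, plus strand) and in an intron of HUWE1 on the X chromosome (46303299 to 46303320, minus strand), and the copies give one mature sequence. It held 6834, 6839 and 6868 TPM on day 0, where the libraries were nearly equal, and 4002, 4928 and 4427 TPM on day 2 (log2 fold change -0.63, SE 0.11, FDR = 0.0281). ssc-miR-874, from an intron of KLHL3 on chromosome 2 (139660128 to 139660150, minus strand), is scarce. Its 4.88, 5.64 and 4.98 TPM on day 0 went to 1.86, 2.98 and 1.48 TPM on day 2, which is 54, 85 and 84 reads against 15, 39 and 13 (log2 fold change -1.02, SE 0.20, FDR = 0.0455).

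ssc-miR-1, a miRNA of skeletal and heart muscle, has copies on chromosome 17 (61894099 to 61894119, plus strand) and in an intron of LOC110261182 on chromosome 6 (107002178 to 107002198, minus strand). It held 792, 931 and 981 TPM on day 0 and 484, 519 and 450 TPM on day 2 (log2 fold change -0.89, SE 0.13, FDR = 0.0217). The other muscle miRNAs that could be tested did not pass. ssc-miR-133a-3p, made from the same transcripts as miR-1, stood at 7.68 ± 0.146 TPM on day 0 and 9.78 ± 0.978 on day 2 (SD, n = 3), and ssc-miR-499-5p at 20.1 ± 2.65 and 16.4 ± 2.74 TPM. The part of muscle cells in these values was not tested. novel_miR_542, on an unplaced scaffold (2527903 to 2527924, plus strand), held 511, 429 and 499 TPM on day 0 and 272, 263 and 210 TPM on day 2 (log2 fold change -0.95, SE 0.15, FDR = 0.0225). miR-203, whose sequence it carries, is known from the epidermis.

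Of the 12 entries that rose, 8 were among the 160 new ones (against 2.79% of all entries), but 4 of the 8 are one sequence. ssc-miR-381-3p, ssc-miR-758, novel_miR_461 and novel_miR_716 come from one genomic domain. ssc-miR-210, the miRNA induced by hypoxia-inducible factor, had the largest rise of the 18. It measured 18.0, 15.4 and 20.2 TPM on day 0 and 83.1, 64.4 and 41.0 TPM on day 2, so that all day 2 libraries lay above day 0, although they were spread widely. Its log2 fold change was 1.71 (SE 0.27, FDR = 0.0225), and it lies between genes on chromosome 2 (335278 to 335299, minus strand).

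**Figure D2:**
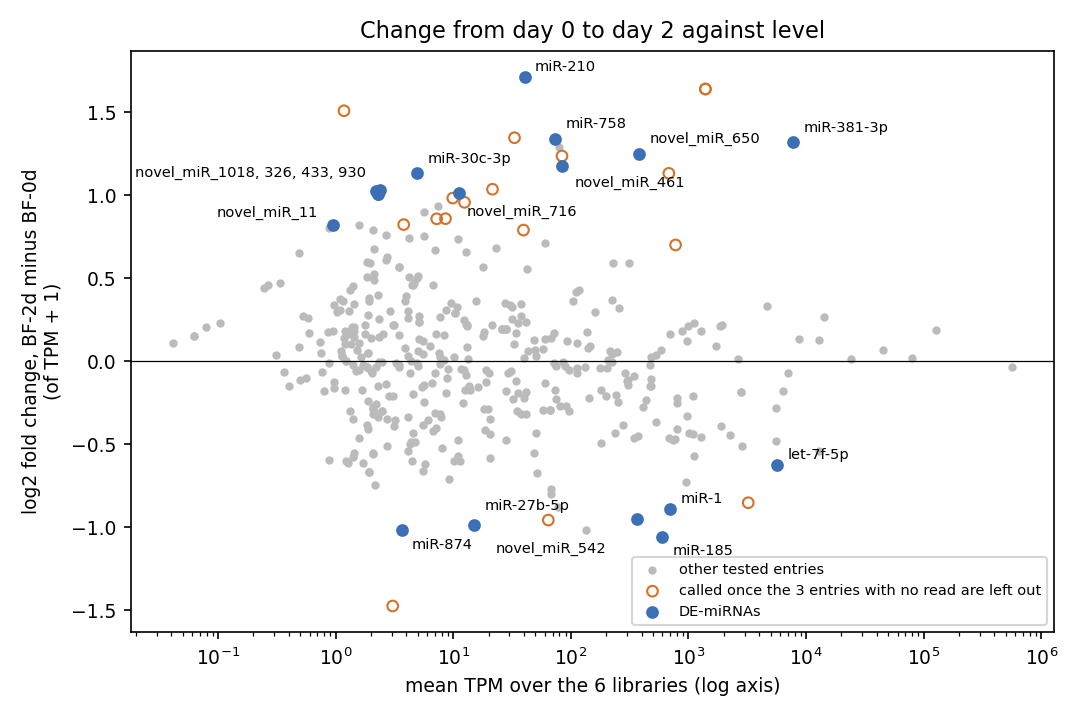
Log2 fold change from BF-0d to BF-2d (y axis, of TPM + 1) against the mean TPM of the 6 libraries (x axis, log scale) for the tested entries with a read. Filled points are the 18 DE-miRNAs and open circles the 17 entries called only when the 3 entries without a read are left out. The most abundant entry, ssc-miR-21-5p, lies at -0.04.

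The DLK1-DIO3 domain is an imprinted region that holds DLK1, the preadipocyte protein Pref-1, and, downstream of the non-coding RNA MEG3, one of the largest miRNA clusters of mammals. In Sscrofa11.1 it is split between the end of chromosome 7 and an unplaced scaffold that carries DIO3. By position, a rule chosen after values were seen, 23 tested entries fell in it, 7 on chromosome 7 and 16 on the scaffold. Of these, novel_miR_912 lies on the minus strand, 473 kb from the first entry on the scaffold, and the others lie on the plus strand. The sequence of ssc-miR-493-3p also occurs on chromosome 2. In BF, 22 of the 23 had an estimate above 0, with a median log2 fold change of 0.82 against 0.01 for all tested entries. Of these, 4 passed the test (4 of 23, against 2.79% of all entries), 9 did so with the entries without a read left out (against 6.09%), and 12 had all day 2 libraries above those of day 0 (against 13.0%).

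ssc-miR-381-3p is the most abundant of them and among the 10 most abundant miRNAs of these cells (scaffold positions 50074 to 50095, plus strand). It measured 4308, 4839 and 3957 TPM on day 0 and 11961, 13203 and 8101 TPM on day 2 (log2 fold change 1.32, SE 0.20, FDR = 0.0217). ssc-miR-758 (32770 to 32790) had 39.1, 42.2 and 39.5 TPM against 116, 134 and 71.1 TPM (1.34, SE 0.25, FDR = 0.0333). The day 0 libraries lay close together in both, and BF-2d replicate 3 was the lowest of day 2.

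novel_miR_461 (68943 to 68964) had 51.9, 57.3 and 42.2 TPM on day 0 and 128, 139 and 84.2 TPM on day 2 (log2 fold change 1.17, SE 0.23, FDR = 0.0455). novel_miR_716 (39795 to 39816) had 8.50, 6.43 and 6.17 TPM and then 16.1, 15.9 and 13.4 TPM (1.01, SE 0.18, FDR = 0.0281). They lie 38.9 and 9.75 kb downstream of ssc-miR-411, the first entry on the scaffold. Another 5 passed only without the entries that have no read, namely ssc-miR-299, ssc-miR-136-3p, ssc-miR-411, ssc-miR-493-5p and ssc-miR-127, with log2 fold changes between 0.82 and 1.13. ssc-miR-127, the best known of the proximal group on chromosome 7 (121709688 to 121709709, plus strand), measured 410, 432 and 387 TPM on day 0 and 1054, 1255 and 547 TPM on day 2 (FDR = 0.0917, and 0.0283 without those entries).
Their sequences show that the members of the domain do not share one seed.
ssc-miR-127: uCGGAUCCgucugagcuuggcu
ssc-miR-493-5p: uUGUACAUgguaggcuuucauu
ssc-miR-136-3p: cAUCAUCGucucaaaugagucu
ssc-miR-411: aUGUAACAcgguccacuaac
ssc-miR-299: aUGGUUUAccgucccacauac
The entry below 0 was novel_miR_1205, at 0.792 ± 0.241 TPM on day 0 and 0.724 ± 0.340 TPM on day 2 (SD, n = 3). ssc-miR-370, next to the proximal group, had 58.9, 27.8 and 42.4 TPM on day 0 and 161, 142 and 46.5 TPM on day 2, where the third library of day 2 falls inside the range of day 0 (log2 fold change 1.29, SE 0.52, FDR = 0.187). In 21 of the 23 entries this library, BF-2d replicate 3, was the lowest of day 2, as it was in 62.6% of all tested entries.

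**Figure D3:**
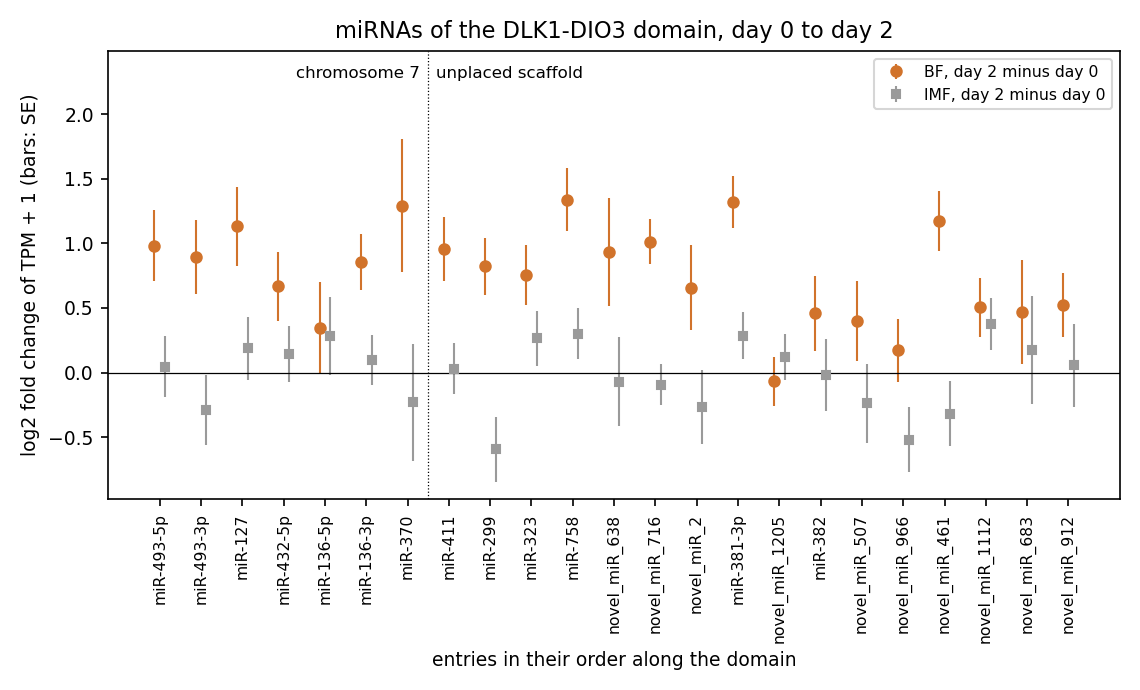
Log2 fold change from day 0 to day 2 (with SE) of the 23 tested entries of the DLK1-DIO3 domain in their order along it, in BF (circles, fit of the 6 BF libraries) and in IMF (squares, fit of 12 libraries). In 22 of 23 entries the BF point lies above the IMF point, with medians of 0.82 and 0.05.

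Among the miR-30 hairpins, ssc-miR-30c-3p, a minor arm, rose. It measured 1.99, 3.31 and 2.85 TPM on day 0 and 6.81, 7.10 and 7.27 TPM on day 2 (log2 fold change 1.13, SE 0.18, FDR = 0.0225). Its hairpin lies with that of miR-30a in an intron of LOC102157778 on chromosome 1 (51383791 to 51383812, minus strand). ssc-miR-30c-1-3p, with the same seed, did not pass (log2 fold change -0.07, SE 0.13, FDR = 0.82). The sum over this seed did not pass either (0.45, SE 0.13, FDR = 0.0917). The 5p arms of miR-30 share the seed GUAAACA and are known to favour adipogenesis. None of the 5 passed the test, but 4 had all day 2 libraries above those of day 0 (13.0% of all entries), and ssc-miR-30a-5p and ssc-miR-30b-5p passed without the entries that have no read.
ssc-miR-30a-5p: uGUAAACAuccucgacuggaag
ssc-miR-30e-5p: uGUAAACAuccuugacuggaagcu
ssc-miR-30a-5p held 552, 626 and 587 TPM and then 1010, 1089 and 793 TPM (log2 fold change 0.70, SE 0.15, FDR = 0.0615). ssc-miR-30b-5p held 48.5, 42.7 and 48.9 TPM and then 167, 138 and 59.5 TPM (1.24, SE 0.38, FDR = 0.118), so that its size rests on the first and second libraries of day 2. ssc-miR-30e-5p, with the same seed, did not pass and had all day 2 libraries below those of day 0, with 486, 411 and 439 TPM on day 0 and 380, 408 and 319 TPM on day 2.

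The other DE-miRNAs that rose were new entries. novel_miR_650 had 196, 289 and 191 TPM on day 0 and 541, 678 and 400 TPM on day 2 (log2 fold change 1.25, SE 0.25, FDR = 0.0455). novel_miR_1018, novel_miR_326, novel_miR_433 and novel_miR_930 are one sequence counted under 4 names, and their values are nearly the same. novel_miR_1018 had 1.08, 1.19 and 1.42 TPM and then 3.59, 3.36 and 3.75 TPM (1.03, SE 0.13, FDR = 0.0149). The sequence occurs 43 times in Sscrofa11.1, all of them in masked repeats, so a locus cannot be given. Another entry with these 20 bases, novel_miR_1137, holds more reads and did not pass, with 2.59 ± 0.288 TPM on day 0 and 4.31 ± 0.229 on day 2 (SD, n = 3; log2 fold change 0.57, SE 0.14, FDR = 0.0826). novel_miR_11 matches the genome at 12286 places. It rests on 4, 4 and 10 reads on day 0 and 13, 15 and 15 on day 2 (0.82, SE 0.15, FDR = 0.0316).

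Of the 17 entries that passed only without the entries that have no read, 14 rose and 3 fell. The highest log2 fold changes among them were those of ssc-miR-129a-5p and ssc-miR-129b, a single mature sequence from hairpins on chromosomes 2 and 18 counted under both names, which is known from the nervous system.
ssc-miR-129a-5p: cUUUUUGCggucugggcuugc
ssc-miR-29b: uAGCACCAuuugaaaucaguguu
ssc-miR-129b measured 561, 824 and 561 TPM on day 0 and 2485, 2801 and 1129 TPM on day 2 (log2 fold change 1.64, SE 0.37, FDR = 0.0644, and 0.00862 without those entries). The other arm of this hairpin, ssc-miR-129a-3p, moved from 13.9 ± 4.03 to 29.2 ± 5.67 TPM (SD, n = 3). ssc-miR-29b, a repressor of collagen mRNAs, had 23.6, 12.1 and 18.5 TPM and then 68.0, 45.2 and 31.5 TPM (1.35, SE 0.35, FDR = 0.0891, and 0.0181 without those entries).

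ssc-miR-132, transcribed on cyclic AMP signalling through CREB, had 27.4, 27.4 and 30.4 TPM on day 0 and 56.1, 57.3 and 38.4 TPM on day 2 (log2 fold change 0.79, SE 0.19, FDR = 0.0882, and 0.0385 without those entries). Its cluster partner ssc-miR-212 had 5.39 ± 0.945 and 8.00 ± 2.70 TPM (SD, n = 3), and the days overlap. novel_miR_298 was nearly absent on day 0, with 0, 2 and 0 reads, and had 27, 41 and 4 reads on day 2. The entries that fell were both arms of miR-99a and ssc-miR-145-3p. ssc-miR-99a-5p measured 5045, 3165 and 4254 TPM on day 0 and 2651, 2443 and 1777 TPM on day 2 (-0.85, SE 0.22, FDR = 0.0906, and 0.0293 without those entries). ssc-miR-99a-3p went from 4.91 ± 1.33 to 1.19 ± 0.860 TPM and ssc-miR-145-3p from 86.0 ± 27.2 to 42.7 ± 5.43 TPM (SD, n = 3).

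BF-2d replicate 3 was the lowest of day 2 in 269 of the 430 tested entries (62.6%). Among the DE-miRNAs this was so in 6 of the 12 that rose and in 4 of the 6 that fell, and in 19 of the 26 entries called higher without the entries that have no read. Without this library 42 entries passed, all 18 DE-miRNAs among them, whereas leaving out any other library gave between 0 and 4. When the entries without a read in the libraries kept were left out as well, the counts were 12 to 23 without another library and 57 without BF-2d replicate 3. Its depth (8802718 reads) and its ssc-miR-21-5p share (56.8%) lie within the range of the other BF libraries. The share of its top 10 entries (91.2%) was above, and that of new entries (0.255%) just below, those of all other BF libraries. The part of these differences in the results was not tested.

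In the lists that follow, a count of 0 or 1 is near the 4.19% of all tested entries that passed and is no result about the list. Of 10 tested miRNAs reported to restrain fat cell formation none passed, with a median log2 fold change of -0.11. Their summed level, most of it ssc-miR-27b-3p, was 18327 to 21227 TPM in the day 0 libraries and 13267 to 14798 TPM in those of day 2, without overlap. ssc-miR-27a, with the seed of miR-27b-3p, had 1511, 961 and 1050 TPM on day 0 and 862, 882 and 442 TPM on day 2 (log2 fold change -0.73, SE 0.32, FDR = 0.224). Of 12 tested miRNAs reported to favour it, ssc-miR-210 was the only one that passed, and the median was -0.25. ssc-miR-26a, in that list, went from 6449 ± 518 to 4626 ± 500 TPM (SD, n = 3) without overlap (-0.48, SE 0.12, FDR = 0.0891), and ssc-miR-103 from 1164 ± 42.1 to 864 ± 104 TPM (-0.44, SE 0.13, FDR = 0.105). ssc-miR-143-3p and ssc-miR-148a-3p, the most abundant members, had log2 fold changes of 0.02 (SE 0.09) and 0.18 (SE 0.13). Of the other miRNAs among the 10 most abundant, ssc-miR-100, ssc-miR-10b, ssc-miR-151-3p and ssc-miR-199b-5p overlapped between the days, with log2 fold changes of 0.01 (SE 0.12), 0.13 (SE 0.26), 0.27 (SE 0.21) and 0.13 (SE 0.11).

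In the let-7 and miR-98 family 7 of 8 estimates lay below 0, with a median of -0.44, and 5 had all day 2 libraries below day 0 (16.7% of all entries). ssc-let-7f-5p was the one that passed. ssc-let-7i-5p, which holds most reads of the family, differed, with 46118, 36744 and 50732 TPM on day 0 and 51078, 46631 and 41473 TPM on day 2 (0.07, SE 0.15, FDR = 0.838). Among the 10 tested members of the miR-17-92 cluster and its paralogs, which drive proliferation, none passed and the median was 0.28. The highest estimates there were those of ssc-miR-363, ssc-miR-106a and ssc-miR-20b, neighbours on the X chromosome, between 0.51 and 0.56. Of 9 tested brown fat miRNAs none passed (median -0.30), with ssc-miR-193a-5p at 62.8 ± 7.41 TPM on day 0 and 39.4 ± 7.40 on day 2 (SD, n = 3; -0.67, SE 0.19, FDR = 0.0972).

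In the miR-143 and miR-145 cluster the minor arms had the larger estimates. ssc-miR-143-5p measured 143, 64.6 and 99.0 TPM and then 52.0, 58.7 and 47.3 TPM (-0.88, SE 0.29, FDR = 0.133), while the far more abundant ssc-miR-143-3p lay at 0.02. None of the 7 tested members of the miR-15, miR-16, miR-195, miR-497, miR-424 and miR-503 group passed (median -0.03), nor did any of the 6 of miR-199 and miR-214 (median -0.19), the 3 of miR-221 and miR-222 (median -0.02), the 2 of miR-34 (median -0.03), the 6 of the HOX clusters (median -0.20), or the 10 and 6 of the X-linked miR-424 and miR-532 clusters (medians 0.08 and -0.01). The inflammatory miRNAs ssc-miR-146a-5p and ssc-miR-155-5p went from 179 ± 54.4 to 91.4 ± 37.7 TPM and from 498 ± 58.4 to 449 ± 65.4 TPM (SD, n = 3) and did not pass (FDR = 0.17 and 0.619).

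When TPM values were summed over miRNAs with one seed, 10 of 258 seed families passed (3.88%), and 20 of 256 (7.81%) without the families that have no read. Of the 10, all but miR-1 with miR-206 are a single sequence. The let-7 seed family as a sum had a log2 fold change of -0.07 (SE 0.11, FDR = 0.76), and ssc-let-7i-5p makes up most of that sum. The miR-27 family had 16407 TPM on day 0 and 11192 TPM on day 2 (-0.55, SE 0.09, FDR = 0.0249), below the fold criterion, and the 5p arms of miR-30 went from 5347 to 6862 TPM (0.35, SE 0.13, FDR = 0.157). The ratio of the 5p to the 3p arm did not pass the test in any of 59 hairpins (limma, 13 with an unadjusted p under 0.05). The lowest p was that of miR-30b, where the 5p arm had an estimate of 1.24 and the 3p arm of 0.21 (difference 1.02, SE 0.29, FDR = 0.166).

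The same 2 days in IMF were used to ask whether the changes differ between the sources of the cells. The difference between the changes, tested as an interaction over 12 libraries, passed FDR 0.05 for 19 of 430 entries (4.42%), 12 with the higher change in BF (2.79%) and 7 with the lower (1.63%). Of the 18 DE-miRNAs, 9 were among the 19. For ssc-miR-210 the change was 1.71 in BF and -0.14 (SE 0.22) in IMF, where it stood at 67.9 ± 8.60 TPM on day 0 and 61.2 ± 4.66 on day 2 (SD, n = 3), a difference of 1.85 (SE 0.32, FDR = 0.0275). The BF level was thus below that of IMF on day 0 and close to it on day 2. ssc-miR-185 stood at 801 TPM in BF and 450 TPM in IMF on day 0, and at 384 and 412 TPM on day 2 (difference -0.94, SE 0.22, FDR = 0.0413). This call held under 8 of 20 alternatives.

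ssc-miR-381-3p, novel_miR_461 and novel_miR_716 of the DLK1-DIO3 domain also differed, by 1.03 (SE 0.25), 1.49 (SE 0.36) and 1.11 (SE 0.22). Their calls held under 7, 8 and 9 of 20 alternatives. In IMF their day 0 means were higher (19656, 238 and 32.1 TPM, against 4368, 50.5 and 7.03 TPM in BF), and 22 of the 23 entries of the domain had all IMF-0d libraries above all BF-0d libraries, against 78 of all 430 tested entries (18.1%). ssc-miR-27b-3p had an estimate of -0.54 in BF and of 0.51 (SE 0.14) in IMF, a difference of -1.06 (SE 0.20, FDR = 0.0329), and its neighbours and relatives ssc-miR-23b and ssc-miR-23a differed in the same direction (-0.88, FDR = 0.046, and -0.73, FDR = 0.0329), in calls that held under 3 and 5 of 20 alternatives.
ssc-miR-27b-3p: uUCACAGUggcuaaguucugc
ssc-miR-23a: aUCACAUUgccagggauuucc
ssc-miR-23b: aUCACAUUgccagggauuacca
ssc-miR-146b: uGAGAACUgaauuccauaggc
ssc-miR-146b, an NF-kB target, had the lowest p of all. In IMF its 47.3, 32.4 and 48.2 TPM on day 0 became 7.59, 9.85 and 5.61 TPM on day 2. In BF it measured between 3.85 and 6.24 TPM on both days. The fall of novel_miR_542, in contrast, was -0.95 in BF and -0.97 (SE 0.14, FDR = 0.0088) in IMF, and it was the one DE-miRNA that also passed in IMF.

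**Figure D4:**
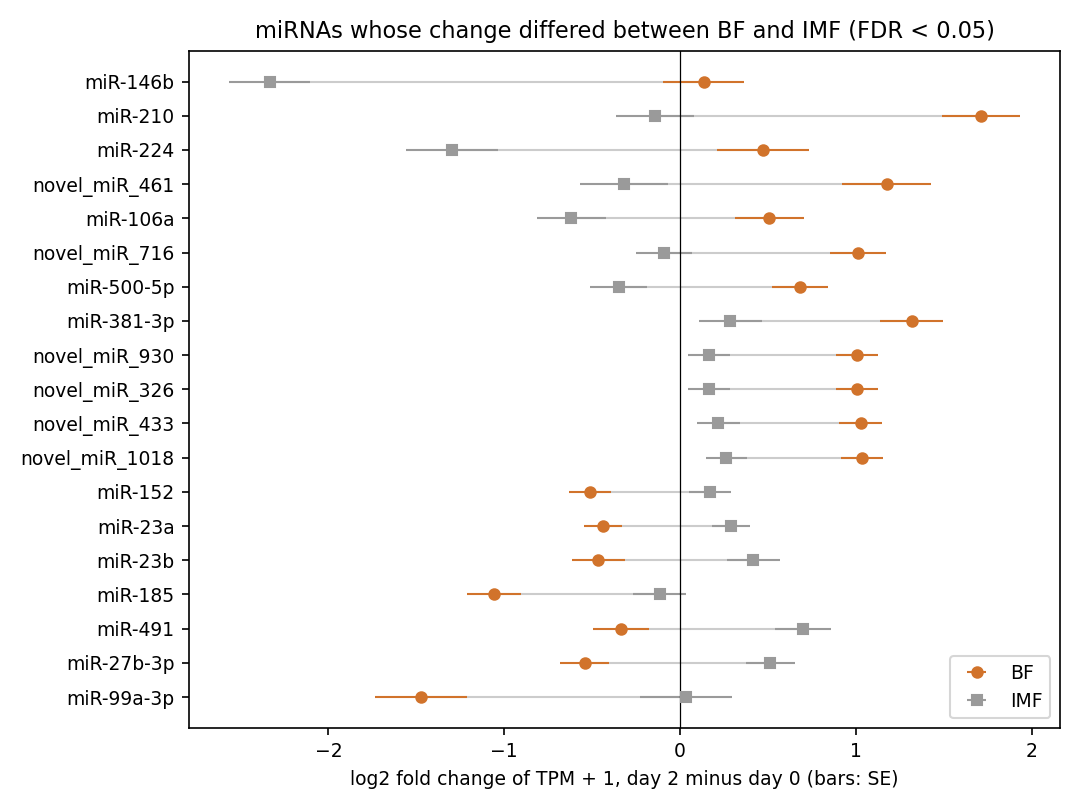
Log2 fold change from day 0 to day 2 (x axis, with SE) in BF (circles) and IMF (squares) for the 19 miRNAs whose change differed between the sources at FDR under 0.05, ordered by the difference. In 13 of the 19 the estimates have opposite signs.

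The later days of BF show which changes were kept, as group means with no test. Of the 12 DE-miRNAs that rose, 9 were still above their day 0 mean on day 8 but only 2 were above their day 2 mean, and of the 6 that fell, 4 were below their day 0 mean on day 8 and none below that of day 2. ssc-miR-210 had means of 17.8 and 62.8 TPM on days 0 and 2 and of 196 and 498 TPM on days 4 and 8. ssc-miR-381-3p was highest on day 2 (11088 TPM) and came down to 8186 and 6006 TPM, and in 20 of the 23 entries of its domain the day 8 mean was below that of day 2. ssc-miR-185 had 497 and 394 TPM on days 4 and 8, while ssc-miR-1 and ssc-let-7f-5p were higher again, ssc-miR-1 at 1203 and 1737 TPM and ssc-let-7f-5p at 7776 and 7148 TPM.

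**Figure D5:**
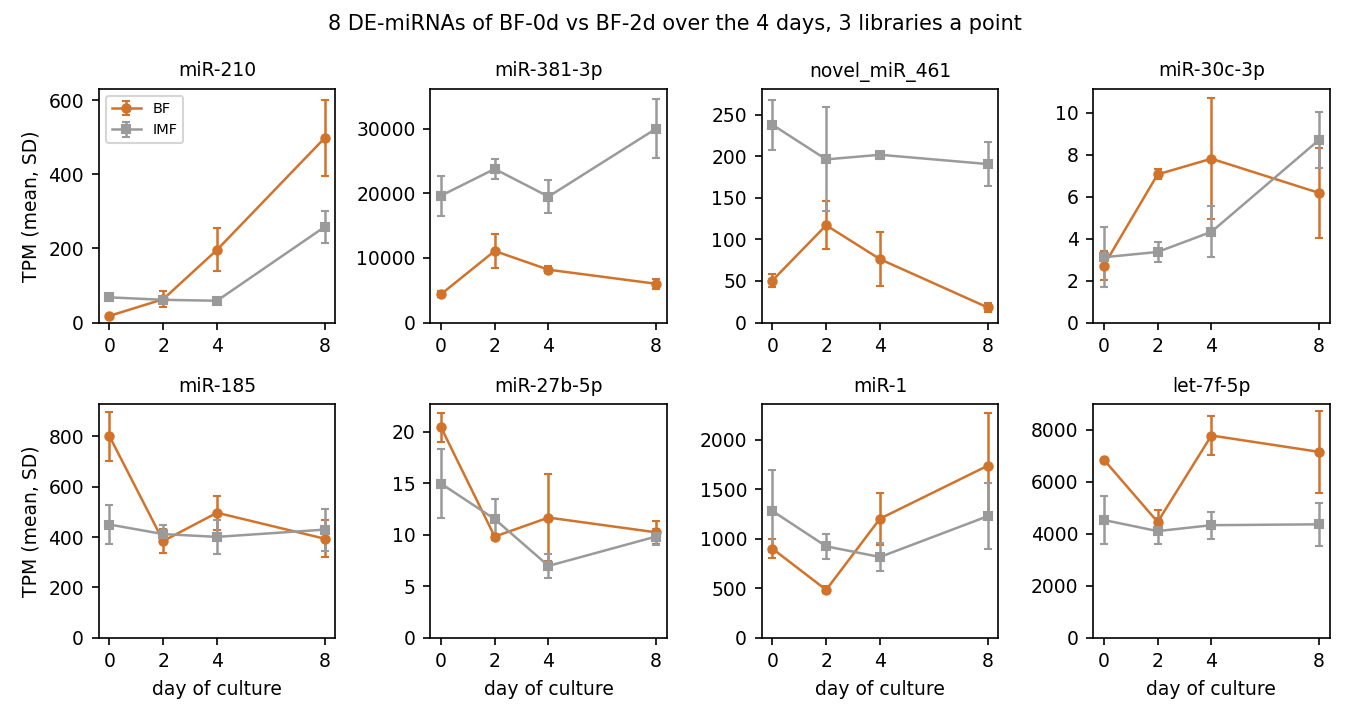
Mean TPM with SD (3 libraries a point) of 8 DE-miRNAs over days 0, 2, 4 and 8 in BF (circles) and IMF (squares), each with a y axis from 0. ssc-miR-210 increases at each day in BF, ssc-miR-381-3p and novel_miR_461 are highest there on day 2, and ssc-miR-1 and ssc-let-7f-5p are lowest there on day 2.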

How the data were processed

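Per the labels and the study's methods, the authors sequenced small RNA as single-end reads, used Bowtie to place reads without mismatch on Sscrofa11.1, discarded other small RNA classes, took known miRNAs from miRBase, predicted new ones with miRDeep2 and used DESeq2. The deposited values, named TPM, are RPM: each column has the same total, and all 38088 values lie within 0.00057 of whole reads. One read may be counted under several entries.

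The main test was limma 3.58.1 (eBayes with trend, R 4.3.3) on log2(TPM + 1) of 6 libraries, for entries averaging 1 TPM or more across 24, with FDR under 0.05 and a fold above 1.5. Differences between BF and IMF were an interaction over 12 libraries. Seed families were sums by bases 2 to 8, and arm ratios were log2 differences. Alternatives were edgeR 4.0.16 and DESeq2 1.42.0 on whole reads, scalings, filters, a block and left-out libraries. The fits were also run on simulated reads with known fold changes, drawn independently for each library. No outcome is given here, and such draws cannot speak to the dependence on single libraries. Counting floors and read counts cover counting error only, since PCR copies cannot be told from separate molecules. Sequences came from the study's supplementary list (336 of 430 entries) or the RefSeq annotation (3), and places from exact matches to Sscrofa11.1 with that annotation. Supplementary values were not used.

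The rule for naming covered the DE-miRNAs, the 10 most abundant, members of the lists (the 4 largest changes where a list has more than 6 tested members), interaction results, sequence twins, families and arm pairs past their test (no arm pair was), and 5 entries called by both edgeR and DESeq2 but not by limma. Other entries of the DLK1-DIO3 domain and of the 17 added calls were named after their values were seen. So were ssc-miR-152, ssc-miR-99a-3p, ssc-miR-30c-1-3p, the arm pair of lowest p, and single list members and markers outside the rule. Several lists are given by their counts and median alone. Members and lists were chosen with earlier results of these data known. Tables and figures were made in Python 3.11.15 with pandas 2.3.3, SciPy 1.17.1, NumPy 2.4.6 and Matplotlib 3.10.9.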

Additional observations from a re-analysis of the deposited data

Results flagged for a closer look

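In 19 miRNAs the step from day 0 to day 2 was not equal in BF and IMF, by the interaction test over 12 libraries at FDR under 0.05. The log2 change in BF minus that in IMF was above 0 for ssc-miR-146b (2.47), ssc-miR-210 (1.85), ssc-miR-224 (1.77), novel_miR_461 (1.49), ssc-miR-106a (1.13), novel_miR_716 (1.11), ssc-miR-500-5p (1.03), ssc-miR-381-3p (1.03), novel_miR_930 (0.84), novel_miR_326 (0.84), novel_miR_433 (0.81) and novel_miR_1018 (0.77). It was below 0 for ssc-miR-99a-3p (-1.51), ssc-miR-27b-3p (-1.06), ssc-miR-491 (-1.04), ssc-miR-185 (-0.94), ssc-miR-23b (-0.88), ssc-miR-23a (-0.73) and ssc-miR-152 (-0.69). novel_miR_326, novel_miR_930, novel_miR_433 and novel_miR_1018 are one sequence.

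ssc-miR-146b was the one whose difference passed under all 20 alternatives. ssc-miR-210 and ssc-miR-27b-3p passed under 14 of 20, and the others under 9 or fewer. ssc-miR-224 is scarce, with 0.102 ± 0.0682 and 0.565 ± 0.394 TPM in BF-0d and BF-2d and 3.39 ± 0.786 and 0.842 ± 0.678 TPM in IMF-0d and IMF-2d (SD, n = 3). ssc-miR-491 had estimates of -0.34 in BF and 0.70 in IMF, and ssc-miR-500-5p of 0.68 and -0.35.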

How the results depend on the processing

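The count of DE-miRNAs was 18 in the main test, and 15 with a pseudocount of 0.1, 27 with a mean of at least 10 TPM, 19 on FDR alone and 23 without new entries. It was 5 with no filter, 11 with entries of one sequence merged, 33 with TMM scaling, 35 with median-of-ratios scaling, 35 without the entries at 0 in all 6 libraries, 46 in one fit of all 24 libraries, 56 with edgeR and 56 with DESeq2. Leaving out 1 library gave from 0 to 42, highest without BF-2d replicate 3, and from 12 to 57 when the entries without a read in the 5 libraries kept were left out too (421 entries tested without BF-2d replicate 1, 427 otherwise). The 18 kept their direction under every alternative that tested them. All 18 stayed called with TMM, the fit of 24 libraries, edgeR and DESeq2, 17 with median-of-ratios scaling, 15 with the pseudocount of 0.1, 11 with a mean of at least 10 TPM, 11 with merged sequences, 9 without new entries and 5 with no filter.

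The differences between BF and IMF numbered 19, and 13 with median-of-ratios scaling and 13 without the entries at 0 in all 12 libraries. They were 12 with a pseudocount of 0.1, 11 with a mean of at least 10 TPM, 10 in one fit of all 24 libraries, 30 with edgeR, 29 with DESeq2 and from 1 to 43 when 1 of 12 libraries was left out, highest without BF-2d replicate 3. Seed families numbered 10, with 8 (pseudocount of 0.1), 23 (median-of-ratios scaling), 20 (without families at 0), 17 (known entries alone) and from 0 to 25 with a library left out. Arm ratios gave 0, and from 0 to 1 with a library left out. The cause of these differences was not tested, except that entries with no read have no spread and enter the estimate of the variance.

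With the replicate block the counts were 0 DE-miRNAs (54 without the entries at 0), 4 differences, 0 seed families and 0 arm ratios. Whether libraries of equal number are pairs cannot be decided from 3 libraries a day. The deviations of BF-0d and BF-2d libraries of equal number correlated at 0.29, 0.05 and -0.08. Not every library correlated best with its own number.

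At 1 read being worth 0.0593 to 0.124 TPM, entries near 1 TPM rest on few reads, and small changes in them were not detectable at this depth.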
